A study of Mus musculus with 4 samples.

Results

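The genes followed here are 10 of the p53 pathway, measured in mouse morulae after knockdown of Nr1h2. They are Trp53 itself, its inhibitors Mdm2 and Mdm4, and 7 target genes outside the BCL2 family, Cdkn1a, Ccng1, Phlda3, Sesn1, Sesn2, Trp53inp1 and Zmat3. The 10 were chosen by symbol, and all had a row among the 13658 genes of the authors' deposited table. The series profiled polyadenylated RNA of wild-type morulae, embryos at compaction just before blastocyst formation, in 4 samples. At the 1-cell stage 2 samples received a non-targeting siRNA (siNT) and 2 an siRNA pool against Nr1h2 (siNr1h2), the gene of the oxysterol receptor LXRβ, in both cases 4 to 5 pL at 100 µM, before culture in M16 medium. An siRNA lowers a transcript without removing the gene, and the labels give neither the number of embryos in a sample nor whether replicates were separate injections, so p-values measure the spread between these samples, which may be technical.

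The p53 protein is a transcription factor that is held low by the ubiquitin ligase Mdm2 and kept inactive by its relative Mdm4. DNA damage, nucleolar stress and other insults release it, and it then raises genes that halt the cell cycle, restrain growth signalling or favour cell death. Mdm2 is itself a target, which closes a feedback loop. Control is mostly at the protein level, so the Trp53 transcript is no readout of p53 activity and its target genes are used instead. Mouse embryos that lack Mdm2 or Mdm4 die early unless Trp53 is removed as well, which makes the balance of these genes of interest around implantation.

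The sequence by which p53 recognises a target is a pair of half-sites of 10 bases, each with a central C and G, separated by a spacer of 0 to 13 bases. RefSeq promoter windows (build GRCm38.p6, from 250 bases before a transcription start to 50 after it) were found by symbol for 8 of the 10 genes, 11 windows in all, and not for Trp53inp1 and Zmat3. The stretches below are shown because they span the range from the best match among these genes, that of Cdkn1a, to the window of Phlda3, the 1 gene of the 10 that passed the test. Each is given 5′ to 3′ on the strand of the gene. Capitals mark the half-sites of the best pair in the window and of any pair with at most 1 mismatch to the p53 consensus.
Cdkn1a: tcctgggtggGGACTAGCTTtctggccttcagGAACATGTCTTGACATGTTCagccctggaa
Ccng1: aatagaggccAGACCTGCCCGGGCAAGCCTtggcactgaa
Sesn1: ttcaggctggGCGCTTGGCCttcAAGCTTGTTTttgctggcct
Trp53: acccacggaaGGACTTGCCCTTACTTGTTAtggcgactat
Phlda3: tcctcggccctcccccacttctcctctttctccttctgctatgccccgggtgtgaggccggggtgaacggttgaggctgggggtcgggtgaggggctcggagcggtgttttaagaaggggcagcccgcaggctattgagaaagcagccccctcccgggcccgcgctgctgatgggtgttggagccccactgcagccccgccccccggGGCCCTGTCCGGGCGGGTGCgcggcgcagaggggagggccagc

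The stretch of Cdkn1a lies at chr17:29090896-29090957 (plus strand, outside annotated genes), before the upstream of its 2 RefSeq starts. It holds a pair with 0 mismatches and a spacer of 12 bases, which 0.0731% of all 32851 windows have, and the second half-site of that pair is followed directly by another half-site. The stretch of Ccng1 at chr11:40755452-40755491 (minus strand, outside annotated genes) has a pair with 1 mismatch (0.627% of windows have one as good). The stretch of Sesn1 at chr10:41887243-41887285 (plus strand, an intron of Sesn1 before an internal start) has a pair with 2 mismatches (4.09% of windows), and that of Trp53 at chr11:69580274-69580313 (plus strand, outside annotated genes) one with 3 (15.6%). In the 250 bases before the Phlda3 start, at chr1:135765835-135766084 (plus strand, outside annotated genes), the best pair had 5 mismatches, and 68.7% of windows hold a pair with as few or fewer. Among the windows not shown, those of the other Cdkn1a start and the other Sesn1 start also had 5 mismatches. The best pair had 4 for Mdm2, 6 for Sesn2, and 3 and 9 for the 2 windows of Mdm4. A pair with at most 3 mismatches stood in 5 of the 11 windows, beside 15.6% of all windows. An exact half-site stood in 5, beside 8.36% of all windows. Most of these genes were chosen as p53 targets, so the counts are a description and no test. These matches describe letters in short windows, and sites of p53 can lie outside them.

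In siNr1h2 morulae 1 of the 10 genes passed the test. Phlda3 was higher, and the other 9 genes did not pass, among them Cdkn1a, the most widely used readout of p53. Over all 12069 genes with an adjusted p in the authors' deposited table (DESeq2 Wald test, Benjamini-Hochberg adjusted p under 0.05), 1.98% were called, 0.456% as higher and 1.52% as lower in siNr1h2, that is 55 higher and 184 lower genes. Centring on the more abundant genes (means from 500 normalized counts up) gave 82 higher and 142 lower, and centring on ribosomal protein genes, which lowers all log2 fold changes by 0.11, gave 36 and 454. Phlda3 was called as higher under both. An unadjusted p under 0.05 was given to 13.3% of all genes tested in the authors' deposited table (1602) and to none of the other 9 genes, a count too small to set them apart from that share. The targeted transcript, Nr1h2, was 5.03 times lower in siNr1h2 in the authors' deposited table (95% interval 3.89 to 6.50). All 12 markers of the preimplantation embryo had a row, with Dppa3 at the highest mean normalized count of the authors' deposited table (147367). Of these 12 only the keratin gene Krt8 was called (lower, log2 fold change -0.50 ± 0.14 (SE)). An unadjusted p under 0.05 was given to 4 of the 12, beside 13.3% of all genes tested. Pou5f1 lay above 0 (0.43 ± 0.15), and Krt8, Krt18 (-0.27 ± 0.13) and Dppa3 (-0.26 ± 0.11) below. The table gives no value per sample, so levels in single samples cannot be printed and depth per sample is unknown. In whole embryos fewer cells that express a gene and less RNA per cell cannot be told apart.

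**Figure D1:**
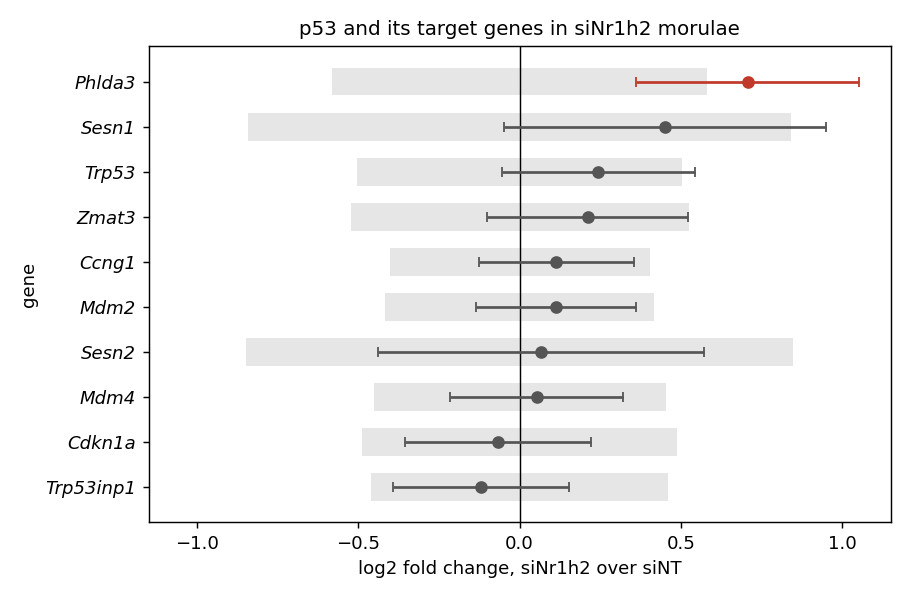
Log2 fold change of each of the 10 genes, siNr1h2 over siNT, from the authors' deposited table (points, with 95% intervals as bars; red, called higher). The grey band of a gene spans the estimated changes too small to be called at its standard error. The point of Phlda3 (0.71) lies outside its band, and those of the other 9 genes lie inside theirs.

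Trp53 was transcribed at a middle level among these genes. Its mean normalized count over all 4 samples was 874 in the authors' deposited table, and its log2 fold change was 0.24 ± 0.15 (SE; 95% interval -0.05 to 0.54, adjusted p = 0.507). The interval runs from 3.73% lower to 45.7% higher, so it does not exclude a modest rise, and a doubling lies outside it. A processed pseudogene, Trp53-ps, matches the Trp53 transcript over 1090 bases at 94.9% identity in the GENCODE M21 transcripts. How reads that fit both were treated is not given in the sources used here, which leaves the value of Trp53 somewhat uncertain.

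Neither of the 2 inhibitors passed. For Mdm2, the ligase that marks p53 for degradation, the authors' deposited table gave a mean normalized count of 1776 and a log2 fold change of 0.11 ± 0.13 (SE; adjusted p = 0.769). For Mdm4, which binds p53 and blocks its activation domain, the authors' deposited table gave a mean of 1155 and a log2 fold change of 0.05 ± 0.14 (adjusted p = 0.920). Both intervals hold 0, from -0.13 to 0.36 for Mdm2 and from -0.22 to 0.32 for Mdm4. Centring on ribosomal protein genes, which lowers all genes alike, put Mdm4 at -0.056. Mdm4 too has a processed pseudogene, Mdm4-ps, alike over 4184 bases at 94.1% identity.

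Of the 2 target genes that act on the cell cycle, neither passed, although they have the highest mean normalized counts of the 10. Cdkn1a encodes p21, the inhibitor of cyclin-dependent kinases through which p53 arrests cells. In the authors' deposited table its mean normalized count was 4648 and its log2 fold change -0.07 ± 0.15 (SE; 95% interval -0.36 to 0.22, adjusted p = 0.901). At the standard error of Cdkn1a an estimated change of 1.40 times would have been called. Ccng1 encodes cyclin G1, a regulator of the phosphatase that acts on Mdm2, and the authors' deposited table listed it at a mean of 5430.2 with a log2 fold change of 0.11 ± 0.12 (95% interval -0.13 to 0.35, adjusted p = 0.761). An estimated change of 1.32 times would have been called, the smallest for any of these genes. Among the windows of the genes followed here, the closest p53 matches lie before Ccng1 and before the upstream start of Cdkn1a, as shown above. Cdkn1a shares 273 exon bases with an antisense gene, AC167363.2, and the library kit does not mark strand.

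Phlda3 belongs to the target genes that restrain growth signalling. It encodes a small protein made up almost wholly of a pleckstrin homology domain, which competes with Akt for membrane lipids and so holds Akt activity down. Its mean normalized count was 536 in the authors' deposited table. Split by the deposited fold change, this corresponds to about 407 in siNT and 664 in siNr1h2 morulae, an approximation that takes the mean as the average of both group levels. Phlda3 was 1.63 times higher in siNr1h2 (95% interval 1.29 to 2.07, log2 fold change 0.71 ± 0.18 (SE), adjusted p = 0.00771) in the authors' deposited table. Among the 55 higher genes it ranked 14 by p and 37 by fold, and 2 by fold among the 15 of them with a mean from 500 normalized counts up. The mean of Phlda3 lies just above that cutoff, so the last rank depends on where the cutoff is set.

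The call of Phlda3 did not hold under each way of processing. Its transcript has a GC content of 62.6%, above that of 98.8% of the genes tested, and is 1435 bases long. The 502 tested genes with a GC content of at least 60% lay above 0 more often in the authors' deposited table, with a median log2 fold change of 0.20 and 69.5% of them above 0, against 50.6% of all genes tested. With a trend on transcript length and GC content removed, a step added after the data were seen, Phlda3 stood at a log2 fold change of 0.53 with an adjusted p of 0.101. With Holm's adjustment, which controls the chance of any false call, its adjusted p was 0.713.

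The sestrins, stress-induced proteins that restrain the growth kinase mTORC1 through its amino acid sensing arm, were measured with less precision. Sesn1, the sestrin under p53 control in many tissues, stood in the authors' deposited table at a mean normalized count of 142 with a log2 fold change of 0.45 ± 0.26 (SE; 95% interval -0.05 to 0.95, adjusted p = 0.443). Sesn2, which also answers to the stress factor ATF4, was listed in the authors' deposited table at a mean of 127 with a log2 fold change of 0.07 ± 0.26 (95% interval -0.44 to 0.57, adjusted p = 0.948). Estimated changes under 1.79 times for Sesn1 and 1.80 times for Sesn2 could not have been called, and these 2 standard errors were the largest of the 10. The sign of Sesn2 turned to -0.0425 with centring on ribosomal protein genes and to -0.061 with the trend on length and GC content removed.

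The remaining targets act in autophagy and on RNA. Trp53inp1, whose product assists p53 and autophagy under stress, had in the authors' deposited table a mean normalized count of 2871 and the lowest log2 fold change of the 10, -0.12 ± 0.14 (SE; adjusted p = 0.778). Zmat3, a zinc finger protein that binds RNA and alters splicing, was listed in the authors' deposited table at a mean of 529.9 with a log2 fold change of 0.21 ± 0.16 (adjusted p = 0.607). Neither interval excludes 0, at -0.39 to 0.15 for Trp53inp1 and -0.10 to 0.52 for Zmat3.

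As a set the 10 genes, chosen with earlier results of these data known, lay slightly above 0. A positive log2 fold change was given by the authors' deposited table for 8 of the 10, and their median was 0.11, against 50.6% above 0 and a median of 0.0042 over all genes tested. Centring on ribosomal protein genes lowered both medians alike, to 0.0055 for the 10 genes (6 above 0) and -0.104 over all genes tested. With the trend on length and GC content removed the median of the 10 was 0.20, with 8 above 0, beside a median of 0.02 over all genes tested. Without Phlda3, 7 of 9 were above 0 with a median of 0.11. Ordered by fold change from Phlda3 through Sesn1, Trp53, Zmat3, Ccng1, Mdm2, Sesn2, Mdm4 and Cdkn1a to Trp53inp1, each gene had a 95% interval that overlapped that of its neighbour. The interval of Phlda3 overlapped those of 4 genes (Sesn1, Trp53, Zmat3 and Sesn2) and lay above those of the other 5. The 5 include Cdkn1a, Ccng1 and Mdm2. The gap to Mdm2 was slight, with a lower end of 0.3621 for Phlda3 and an upper end of 0.3614 for Mdm2. These intervals are those of the values as deposited, without the trend on length and GC content removed. The differences between genes were not tested, since the errors of genes measured in the same 4 samples may be correlated.

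**Figure D2:**
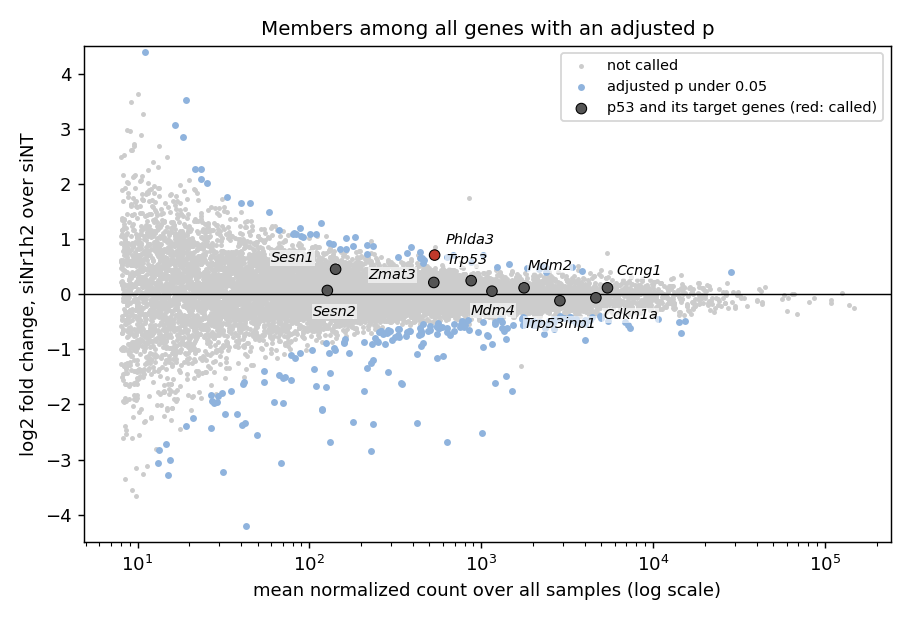
Log2 fold change (siNr1h2 over siNT) against the mean normalized count over all samples (log scale) for every gene with an adjusted p in the authors' deposited table (grey, not called; blue, adjusted p under 0.05), with the 10 p53 genes labelled (red, called). The 10 genes have means from 127 to 5430.2, and Phlda3 is the only one of them at the upper edge of the cloud.

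Levels of different genes were compared per kilobase of exon. Cdkn1a (1710.1 normalized counts per kb) and Ccng1 (1546) were the most abundant of the 10, with the means of the authors' deposited table divided by GENCODE M21 exon lengths. Mdm2 (565 per kb), Trp53inp1 (531), Trp53 (468) and Phlda3 (373) formed a middle group on the same scale. Mdm4 stood at 106 per kb, or 163 with its longest coding transcript as the length, Zmat3 at 68.0, and the sestrins at 36.6 (Sesn2) and 35.8 (Sesn1). The transcript of p21 was thus at a high level in morulae of this series as a whole, at the 95.5th percentile of mean normalized counts over genes tested. No spread over samples can be given for these levels, and the order of the sestrins turned with the length used.

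Relatives of the 10 genes, most of which are not p53 targets, included 2 further genes of the Phlda family. Phlda2, an imprinted gene that limits placental growth and encodes a pleckstrin homology protein like Phlda3, was 3.08 times lower in siNr1h2 in the authors' deposited table (95% interval 2.27 to 4.19, log2 fold change -1.62 ± 0.23 (SE), adjusted p = 5.4e-10). Its mean normalized count was 345, which splits into about 521 in siNT and 169 in siNr1h2 morulae. With the trend on length and GC content removed Phlda2 stood at -1.67 (adjusted p = 1.1e-10), whereas the call of Phlda3 was lost under that step, as given above. The remaining member, Phlda1, did not pass at 0.51 ± 0.29 on the log2 scale in the authors' deposited table (adjusted p = 0.439). So in the deposited values of a single family 1 gene was called higher, 1 was called lower and 1 did not pass. The intervals of Phlda2 and Phlda3 lie on opposite sides of 0, and that of Phlda1 (-0.05 to 1.08) overlaps that of Phlda3.

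The other families held no called gene. The authors' deposited table had a row for 11 of 14 listed relatives and an adjusted p for 10, with a median log2 fold change of -0.26 over the 11. Phlda2 was the 1 call (DESeq2 Wald test), beside 1.98% of all genes tested. An unadjusted p under 0.05 was given to 3 of the 11 (1 above 0, 2 below), beside 13.3% of all genes tested. Trp53inp2, an autophagy gene related to Trp53inp1, stood at -0.45 ± 0.16 (SE) in the authors' deposited table (adjusted p = 0.139). Trp73, the p53 relative, stood at 2.52 ± 1.06 with a mean normalized count of only 8.31 in the authors' deposited table (adjusted p = 0.249). Ccni, a cyclin of the same branch as Ccng1, stood at -0.36 ± 0.19 in the authors' deposited table (adjusted p = 0.409). Sesn3, the sestrin driven mainly by FoxO factors, stood at -0.42 ± 0.40 in the authors' deposited table. Cdkn1b, which encodes p27, had no adjusted p at a mean normalized count of 6.80, and Cdkn1c stood at -0.26 ± 0.29 in the authors' deposited table, against a standard error of 0.15 for Cdkn1a.

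**Figure D3:**
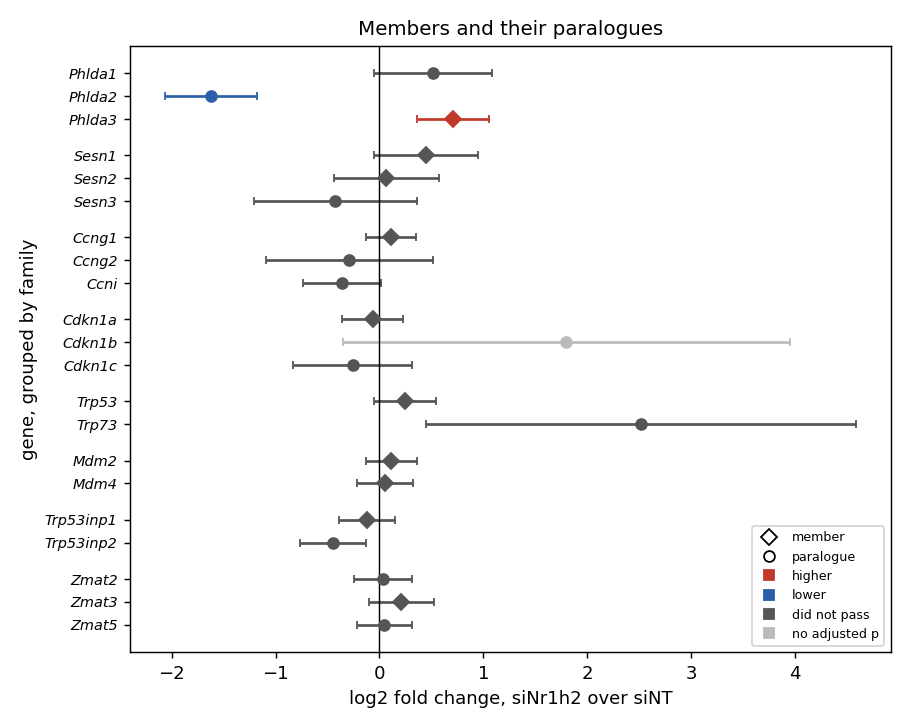
Log2 fold changes (siNr1h2 over siNT) with 95% intervals for the p53 genes (diamonds) and their paralogues (circles), grouped by family, from the authors' deposited table. In the Phlda family Phlda3 (red, 0.71) and Phlda2 (blue, -1.62) stand on opposite sides of 0, and the wide bars of Trp73 and Cdkn1b belong to means under 10 normalized counts.

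Further p53 target genes outside the BCL2 family held no call. Of 36 listed, 32 had a row in the authors' deposited table, 0 were called by the DESeq2 Wald test and 2 had an unadjusted p under 0.05, both above 0, beside 1.98% and 13.3% of all genes tested. Their median log2 fold change was 0.14 and 20 of 32 were above 0, beside a median of 0.0042 over all genes tested. Dcxr, a carbonyl reductase of sugar metabolism, stood at 0.47 ± 0.20 (SE) in the authors' deposited table (adjusted p = 0.238). Plk2, a stress-induced polo-like kinase, stood at 0.33 ± 0.15 (adjusted p = 0.321), and Btg2, an antiproliferative cofactor of deadenylation, at 0.27 ± 0.15 in the authors' deposited table (adjusted p = 0.421). Perp, a desmosomal effector of p53, stood at 0.22 ± 0.12 in the authors' deposited table (adjusted p = 0.429). In the deposited values the 32 ran from -0.68 to 0.76, with 12 below 0. The genes at these ends had low mean normalized counts, 46.7 and 35.2. Centring on ribosomal protein genes lowers all genes alike, so Dcxr, Plk2, Btg2 and Perp stayed above 0 by their size alone. After that centring 18 of the 32 were above 0.

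Among the 3 apoptotic p53 targets of the BCL2 family, 0 were called (DESeq2 Wald test), beside 1.98% of all genes tested. Of these 3, 2 had an unadjusted p under 0.05, in opposite directions, beside 13.3% of all genes tested. On the log2 scale the authors' deposited table put Bbc3, the gene of PUMA, at 1.49 ± 0.48 (SE; adjusted p = 0.0701), Pmaip1, the gene of NOXA, at -0.37 ± 0.18 (adjusted p = 0.335) and Bax at 0.24 ± 0.14. The mean normalized count of Bbc3 was only 39.9. With the trend on length and GC content removed Bbc3 stood at 1.24 (adjusted p = 0.200).

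Genes that act on p53 lay on both sides of 0, from -1.04 to 1.06. Both ends belong to genes measured with little precision. Their mean normalized counts were only 9.80 (lower end) and 2.99 (upper end, no adjusted p). Of 34 listed regulators (kinases of the damage response, ligases and deubiquitinases, acetylases and cofactors), the authors' deposited table had a row for 30 and an adjusted p for 29. The DESeq2 Wald test called 0, and 2 had an unadjusted p under 0.05, both below 0, beside 1.98% and 13.3% of all genes tested. Their median log2 fold change was -0.03 over the 30 and -0.04 over the 29. Sirt1, a deacetylase that acts on p53, stood at -0.38 ± 0.14 (SE) in the authors' deposited table (adjusted p = 0.168; 0.0241, and lower, with centring on ribosomal protein genes). Huwe1, a ubiquitin ligase of p53, stood at -0.26 ± 0.12, and Usp7, the deubiquitinase of Mdm2 and p53, at -0.24 ± 0.12 in the authors' deposited table (adjusted p = 0.336 and 0.381). Rpl5, the ribosomal protein that binds Mdm2 in nucleolar stress, stood at -0.21 ± 0.11 in the authors' deposited table (adjusted p = 0.392), a value that is uncertain because processed pseudogenes of ribosomal protein genes can share reads.

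Downstream of p21, the DREAM complex represses genes of the cell cycle. Of 28 such genes, all with an adjusted p in the authors' deposited table, Ccnb1, a mitotic cyclin, was lower (log2 fold change -0.49 ± 0.13 (SE), adjusted p = 0.0103), 0 were higher and 27 did not pass. The median was -0.07, with 16 of 28 below 0. Ccna2 (-0.28 ± 0.12, adjusted p = 0.260), Cenpe (-0.25 ± 0.12, adjusted p = 0.354) and Bub1 (-0.25 ± 0.14, adjusted p = 0.411) followed by p in the authors' deposited table. The call of Ccnb1 was lost with the trend on length and GC content removed (-0.40, adjusted p = 0.0761). The share called, 1 of 28, stands beside 1.98% of all genes.

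The arms on which Phlda3 and the sestrins act held no called gene. The authors' deposited table gave an adjusted p to 12 of 13 genes of Akt signalling, the DESeq2 Wald test called 0, and 1 had an unadjusted p under 0.05. This was Pik3cb, a catalytic subunit of PI3 kinase (-0.40 ± 0.17 (SE), adjusted p = 0.267), and Akt1 itself stood at -0.41 ± 0.25 in the authors' deposited table (adjusted p = 0.495). Of 22 genes of the amino acid arm of mTORC1, the authors' deposited table had 21, of which 20 had an adjusted p, 0 were called by the same test, and 3 had an unadjusted p under 0.05. These were Seh1l, of the GATOR2 complex that sestrins bind (-0.30 ± 0.12), Prkaa1, a catalytic subunit of AMPK (-0.35 ± 0.15), and Rheb, the activator of mTORC1 (-0.28 ± 0.13), all below 0 in the authors' deposited table. These counts stand beside 1.98% called and 13.3% with such a p over all genes tested. The medians of the 2 lists were -0.02 and 0.0004 over all their rows, and -0.053 and 0.0047 over the genes with an adjusted p.

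Genes of the ATF4 arm of the stress response, which shares Sesn2 and Ddit4 with the p53 targets, lay on both sides of 0, with 1 call. The authors' deposited table had 13 of the 14 listed, of which 12 had an adjusted p. Nupr1, a stress-induced chromatin protein, was lower (-0.69 ± 0.19 (SE), adjusted p = 0.0256), 0 were higher and 11 did not pass. Over all genes tested 1.98% were called. An unadjusted p under 0.05 (DESeq2 Wald test) was given to 4 of the 13 (3 above 0, 1 below), beside 13.3% of all genes tested. Chac1 stood at 1.27 ± 0.56 with a mean normalized count of only 24.7 (adjusted p = 0.278), Trib3 at 0.76 ± 0.36 (adjusted p = 0.324) and Atf4 at 0.12 ± 0.12 in the authors' deposited table. Atf5, 1 of the 4 with such an unadjusted p, had no adjusted p at a mean normalized count of 6.37. It is therefore not among the genes tested on which the 13.3% rests.

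**Figure D4:**
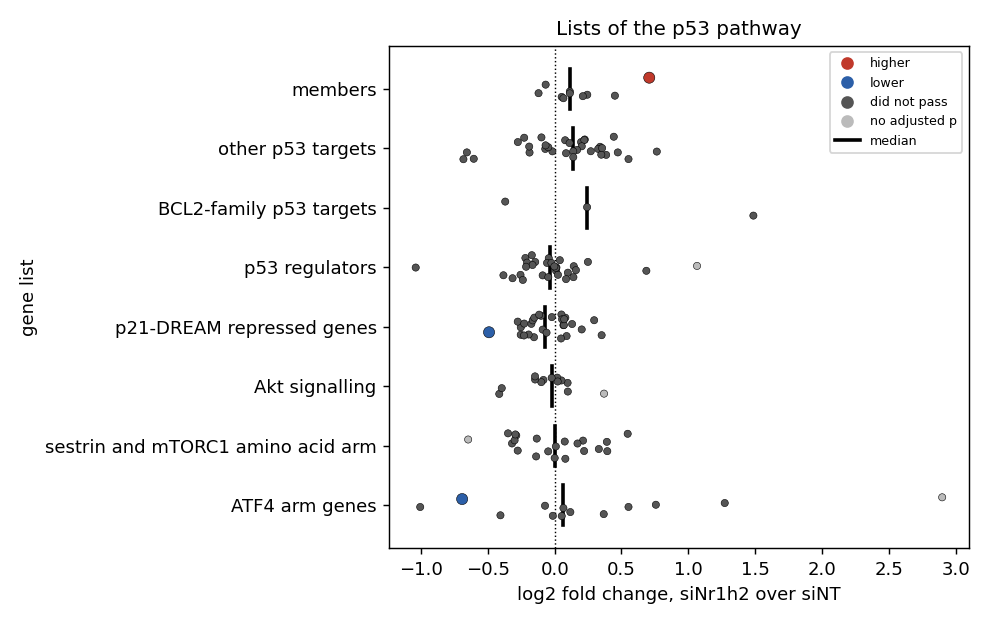
Log2 fold changes (siNr1h2 over siNT) of the genes of 8 lists around p53, from the authors' deposited table, 1 point a gene (red, higher; blue, lower; dark grey, did not pass; light grey, no adjusted p), with the median of each list as a black bar. Phlda3 is the only red point, the blue points are Ccnb1 and Nupr1, and the medians of the 10 members (0.11) and of the other p53 targets (0.14) lie just right of 0.

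Markers of cells other than the embryo, and transcripts of the oocyte, were looked up as well. Of 12 cumulus and granulosa markers 4 had a row in the authors' deposited table, and 0 were called by the DESeq2 Wald test (1 with an unadjusted p under 0.05, Amhr2 at 0.80 ± 0.35 (SE)). The most abundant was Nr5a2 at a mean normalized count of 694, a gene that embryos also express, and Foxl2 and Cyp19a1 had means of 1.94 and 2.89. Of 6 blood cell markers 3 had a row, Cd68 being the most abundant at a mean of 150.3 in the authors' deposited table, and 0 of 6 sperm markers had one. Of 10 oocyte transcripts 9 had a row, with Ooep highest at a mean of 274 in the authors' deposited table, and 0 were called (2 with an unadjusted p under 0.05, both below 0). The 9 had a median log2 fold change of 0.31, with 5 above 0 and 4 below. The counts of these marker lists stand beside 1.98% called and 13.3% with an unadjusted p under 0.05 over all genes tested.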

How the data were processed

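Polyadenylated RNA of mouse morulae was measured in 4 samples, 2 siNT and 2 siNr1h2, from SMART-Seq v4 and Nextera XT libraries, per the labels' protocols. DESeq2, edgeR, Cufflinks 2.2.1, RSEM, HTSeq 0.12.4, STAR and the mm9 build are named, with no roles, per the submitters' processing notes. Annotation and parameters: not given in the sources used here. In 1 file the authors deposited their comparison with the column names of DESeq2, per the file headers. It gives a mean normalized count (a signal, counts over size factors), a log2 fold change with its standard error, a score (the Wald statistic), and, as deposited, the p-value before and after adjustment. No adjusted p is given for 1589 genes with means up to 8.00. It has no values per sample, so 0 such columns were set aside.

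No gene was tested again. Intervals are 1.96 standard errors, and calls are adjusted p-values under 0.05. The smallest callable change is the standard error times 3.30, the smallest absolute Wald statistic that the called p-values allow. It is a limit on the estimated change, not on the true change. Named were the 10 genes, Nr1h2, and per list the called genes, up to 4 with the smallest p and the most abundant marker. Members and lists were chosen with earlier results of these data known. Lengths and GC content came from GENCODE M21 for 99.4% of tested genes, promoters from RefSeq. Copies were sought with at least 90% identity over 200 bases. Scripts (Python 3.11.15, pandas 2.3.3, scipy 1.17.1) were tested on simulated data. Alternatives covered thresholds, filters, adjustment, centring, distribution and the length and GC trend.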

Additional observations from a re-analysis of the deposited data

How the results depend on the processing

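Calls among the 10 genes (1 in the values as reported) fell to 0 with Holm's adjustment, with a t distribution with 2 degrees of freedom and with the trend on length and GC content removed, the last added after the data were seen. They stayed at 1 under the other 7 alternatives, with Phlda3 between 0.60 and 0.75. The 239 calls over all genes became 109 and 395 at adjusted p thresholds of 0.01 and 0.1, 49 with Holm's adjustment, 490 centred on ribosomal protein genes and 0 with the t distribution, which cannot pass the threshold for any gene at this size and says nothing about stability. The 4 calls over all lists became 1 at 0.01, 1 with Holm's adjustment, 2 at a minimum change of 1.5 times, 9 centred on ribosomal protein genes and 0 with the t distribution. Signs turned for Mdm4 (-0.056), Sesn2 (-0.0425) and Zmat5 (-0.06) with centring on ribosomal protein genes, and for Sesn2 (-0.061), Trp53inp1 (0.0052) and Zmat5 (-0.021) with the trend removed, none of them called. Windows of these genes with a pair near the p53 consensus fell from 5 at up to 3 mismatches to 3 at up to 2. No paired analysis was possible because the table holds no values per sample. Leaving out replicates and a test with edgeR were not run for the same reason. Standard errors limit calls to estimated changes of at least 1.32 to 1.80 times, depending on the gene, for these 10 genes.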
